A study of Homo sapiens with 6 samples.

Results

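LCN2, PI3, SLPI, C3, CFB, SAA1 and SAA2 encode proteins that epithelia secrete in defence against microbes and against the proteases of inflammation. The 7 genes were chosen by name, and every probe set (a group of short probes for a transcript) annotated to a single symbol equal to one of them was taken. Of the 7 genes, 5 had such a probe set, with 7 probe sets between them, out of 19775 genes and 54675 probe sets on the array. SAA1 and SAA2 had none, since the 2 probe sets annotated to them name several genes of the serum amyloid A cluster, and neither gene is given a value. CFB and PI3 had 2 probe sets each, and LCN2, SLPI and C3 had 1 each.

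RNA levels of 3 human cell lines were read on 6 Affymetrix arrays, 2 per line. PC-3 is an established line of metastatic prostate cancer. TEM4-18 and TEM2-5 are sublines of it, each recovered, per the labels, in its own experiment as the cells that migrated through a confluent layer of human lung microvascular endothelial cells. The culture medium, with serum, was common to all 3 lines, and the labels name no gene alteration, no drug and no stimulus for any of them. Each TEM line is 1 isolate from 1 parental line, and the labels do not say whether it was grown from a single cell. Whether both arrays of a line had cultures of their own is not stated either, and p-values therefore measure the array-to-array spread alone, which could be technical.

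Secreted defence proteins form the soluble part of the barrier that lining cells keep toward the outside. Lipocalin 2 withholds iron from bacteria by binding their siderophores, elafin (PI3) and the secretory leukocyte protease inhibitor (SLPI) block neutrophil serine proteases, C3 and factor B (CFB) build the alternative pathway of complement, and the serum amyloid A proteins are acute phase proteins. Several of these genes are known targets of NF-kappaB, and LCN2 and SLPI are made by neutrophils as well as by epithelial cells.

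The arrays were alike in overall brightness, with median signals from 267 to 317 in array units, and log2 signals of the arrays of a line correlated at 0.976 to 0.980 across the tested probe sets. The epithelial keratin gene KRT18 had a mean signal of at least 29235 in each line. CDH1, the gene of the epithelial adhesion molecule E-cadherin, had a mean of 14772 in PC-3 and 2499 in TEM2-5, and in TEM4-18 its mean of 41.8 lay near the bottom of the scale. Over 5 epithelial markers the summed signal ran from 174728 to 181499 in PC-3, from 75467 to 82589 in TEM2-5 and from 62194 to 68654 in TEM4-18, and all 5 were lower in both TEM lines. The prostate luminal markers are given further below. In cultures measured in bulk, fewer cells expressing a gene and less RNA per cell cannot be told apart.

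LCN2, the gene of lipocalin 2, read 20323 and 25840.3 in PC-3, 2972 and 2764 in TEM2-5, and 160.1 and 206 in TEM4-18. The 3 lines did not overlap, and the order PC-3, TEM2-5, TEM4-18 held for every array. Means were 23082 ± 3901, 2868 ± 147 and 183 ± 32.7 (SD, n = 2), so TEM2-5 kept 12.4% of the PC-3 signal and TEM4-18 kept 0.794%. As a ratio of mean signals, LCN2 was 8.05-fold lower in TEM2-5 and 126-fold lower in TEM4-18. On the log2(signal + 51.8) scale used for all tests, which understates changes that end at low signals, the log2 fold change was -2.98 ± 0.15 in TEM2-5 (SE, limma adjusted p = 2.22e-06) and -6.62 ± 0.15 in TEM4-18 (limma adjusted p = 1.05e-09). Both changes were larger than the spread between arrays. With 4 times the pseudocount the TEM4-18 value was -5.89, and the call held.

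The sequence before the LCN2 start is printed because LCN2 had the largest change of the members in TEM2-5 and its promoter is a known NF-kappaB target. These are the 250 bases before the RefSeq start on the plus strand, chr9:128149203-128149452 of build GRCh38.p14, read 5′ to 3′. Capitals mark matches, on either strand, to 4 motifs that were searched: the kappaB consensus, the C/EBP motif TTGCNNAA, the STAT motif TTCNNNGAA and the E-box CAGGTG, to which ZEB repressors can bind.
LCN2: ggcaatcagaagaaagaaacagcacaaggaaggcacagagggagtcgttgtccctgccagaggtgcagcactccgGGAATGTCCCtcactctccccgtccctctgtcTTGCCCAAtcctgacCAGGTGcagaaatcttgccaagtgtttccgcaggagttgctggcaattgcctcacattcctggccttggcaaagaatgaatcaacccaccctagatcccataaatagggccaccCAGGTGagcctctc
The kappaB match GGAATGTCCC, on the minus strand, begins 175 bases before the start, and the C/EBP match TTGCCCAA begins 143 bases before it. E-boxes begin 128 and 14 bases before the start, no match overlaps another, and no STAT match was found in this window. Among 34943 promoters of the same length in the table, 9.95% hold a kappaB match, 9.06% a C/EBP match, 6.56% a STAT match and 17.5% the E-box, so none of these matches is rare. A match is a string of letters and not evidence of binding.

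PI3 encodes elafin, an inhibitor of neutrophil elastase and proteinase 3 that is anchored in tissue by transglutaminases (it is not the kinase of a similar name). Its brighter probe set read 31743 and 34646 in PC-3, 6475 and 7203 in TEM2-5 and 288 and 299 in TEM4-18. The other probe set read 32536 and 32015 in PC-3, 7428 and 5817 in TEM2-5 and 146 and 149 in TEM4-18. Both placed the lines in the same order with no overlap, and both had their lowest readings on the TEM4-18 arrays.

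On the brighter probe set the means were 33194 ± 2052, 6839 ± 515 and 293 ± 7.87 (SD, n = 2). TEM2-5 kept 20.6% of the PC-3 signal and TEM4-18 kept 0.883%. The log2 fold change was -2.27 ± 0.10 in TEM2-5 (SE, limma adjusted p = 1.93e-06) and -6.59 ± 0.10 in TEM4-18 (limma adjusted p = 2.21e-10). The other probe set gave -2.29 ± 0.13 and -7.34 ± 0.13 and passed the threshold in both lines as well. The probe sets gave like values for TEM2-5 and differed for TEM4-18, where PC-3 exceeded it 113-fold on the brighter and 219-fold on the other.

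SLPI, which encodes the secretory leukocyte protease inhibitor of mucosal fluids, read 9127 and 8349 in PC-3, 2003 and 1754 in TEM2-5, and 530.4 and 267 in TEM4-18. Again the lines did not overlap, but the TEM4-18 arrays lay far apart relative to their mean of 399 ± 186 (SD, n = 2). PC-3 had a mean of 8738 ± 549.6 and TEM2-5 one of 1878 ± 177. TEM2-5 kept 21.5% of the PC-3 signal and TEM4-18 kept 4.56%. The log2 fold change was -2.19 ± 0.23 in TEM2-5 (SE, limma adjusted p = 0.000160) and -4.35 ± 0.23 in TEM4-18 (limma adjusted p = 5.99e-07). Without TEM4-18 replicate 1 or 2, the latter was -4.78 or -3.91 and the call held.

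**Figure D1:**
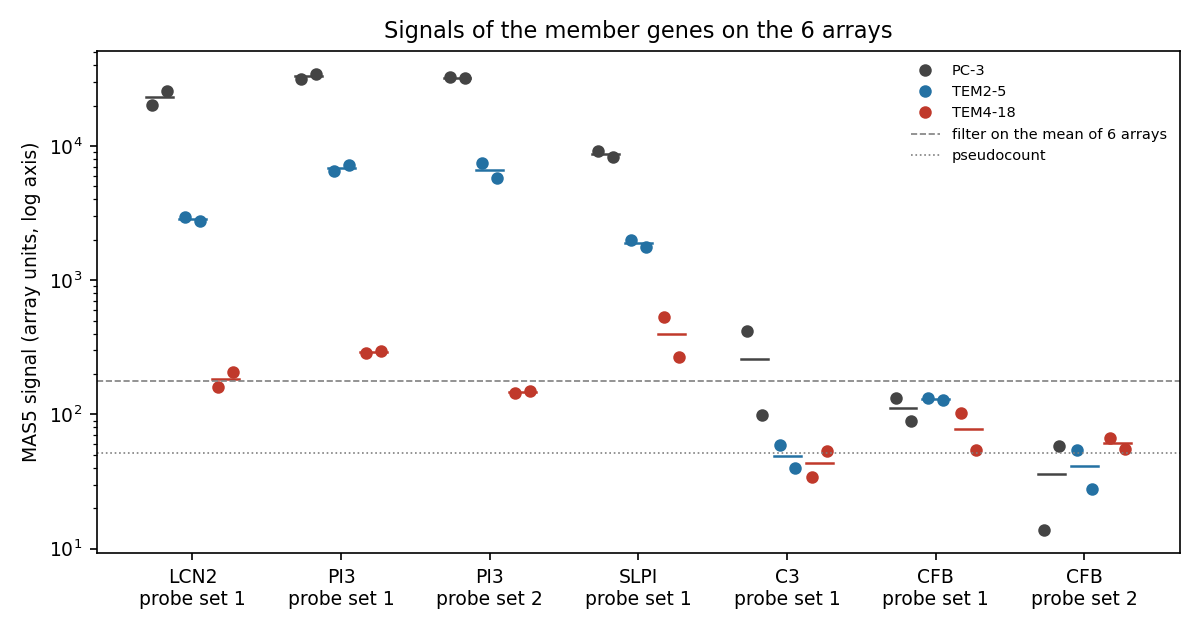
Signal of each single-symbol probe set of the member genes on the 6 arrays (log axis, array units), with points for arrays and short lines for the mean of the 2 arrays of a line. LCN2, PI3 and SLPI step down from PC-3 to TEM2-5 to TEM4-18, from as high as 34646 for PI3 to as low as 146, while C3 and CFB lie at or below 133 apart from the 415 of C3 on 1 PC-3 array.

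The complement genes C3 and CFB were dim in every line. C3, the central complement component, read 415 and 99.2 in PC-3, 58.9 and 39.8 in TEM2-5 and 34.2 and 53.1 in TEM4-18. Both PC-3 readings lay above all 4 TEM readings, but they lay further from each other than the lower of them did from the TEM arrays. CFB, the protease component of the alternative pathway convertase, read 133 and 89.4 in PC-3, 132 and 128 in TEM2-5 and 102 and 54.2 in TEM4-18 on its brighter probe set, and these ranges overlapped. Its other probe set read 13.7 to 67.2 over the 6 arrays. The mean of each of these 3 probe sets lay below 178, the level a probe set had to exceed to be tested. Fitted with no filter, C3 had log2 fold changes of -1.48 in TEM4-18 (limma adjusted p = 0.128) and -1.40 in TEM2-5 (limma adjusted p = 0.193). CFB had -0.34 (limma adjusted p = 0.705) and 0.17 (limma adjusted p = 0.889). At these signals a difference was not detectable with 2 arrays per line, which does not show that the lines are alike. The 250 bases before the CFB start hold a kappaB match from base 112, a STAT match from base 92 and an E-box from base 51 before the start, and no C/EBP match. PI3, SLPI, C3, SAA1 and SAA2 are not in the promoter table.

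By gene, then, 3 of the 7 members were called lower in TEM4-18 than in PC-3, against a background of 16.1% of 13557 tested genes called lower, and the same 3 were called lower in TEM2-5, against a background of 10.1%. No member was called higher in either line, where 13.3% and 9.04% of tested genes were, 2 lay below the filter and 2 had no probe set of their own. LCN2, PI3 and SLPI passed the filter through high signals in PC-3, so the count of tested members called is not read as support. In the order of log2 fold changes from the lowest, LCN2 was at place 6, PI3 at place 7 and SLPI at place 46 of the tested genes in TEM4-18, and at places 10, 61 and 74 in TEM2-5. The median log2 fold change over all tested genes was -0.037 in TEM4-18 and -0.024 in TEM2-5. Both comparisons use the same PC-3 arrays. The number of probe sets called between TEM2-5 and PC-3, 5331 in all, was 2842 when TEM2-5 replicate 2 was left out, 2988 when TEM2-5 replicate 1 was and 3329 when PC-3 replicate 2 was, while the 3 members stayed called each time.

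**Figure D2:**
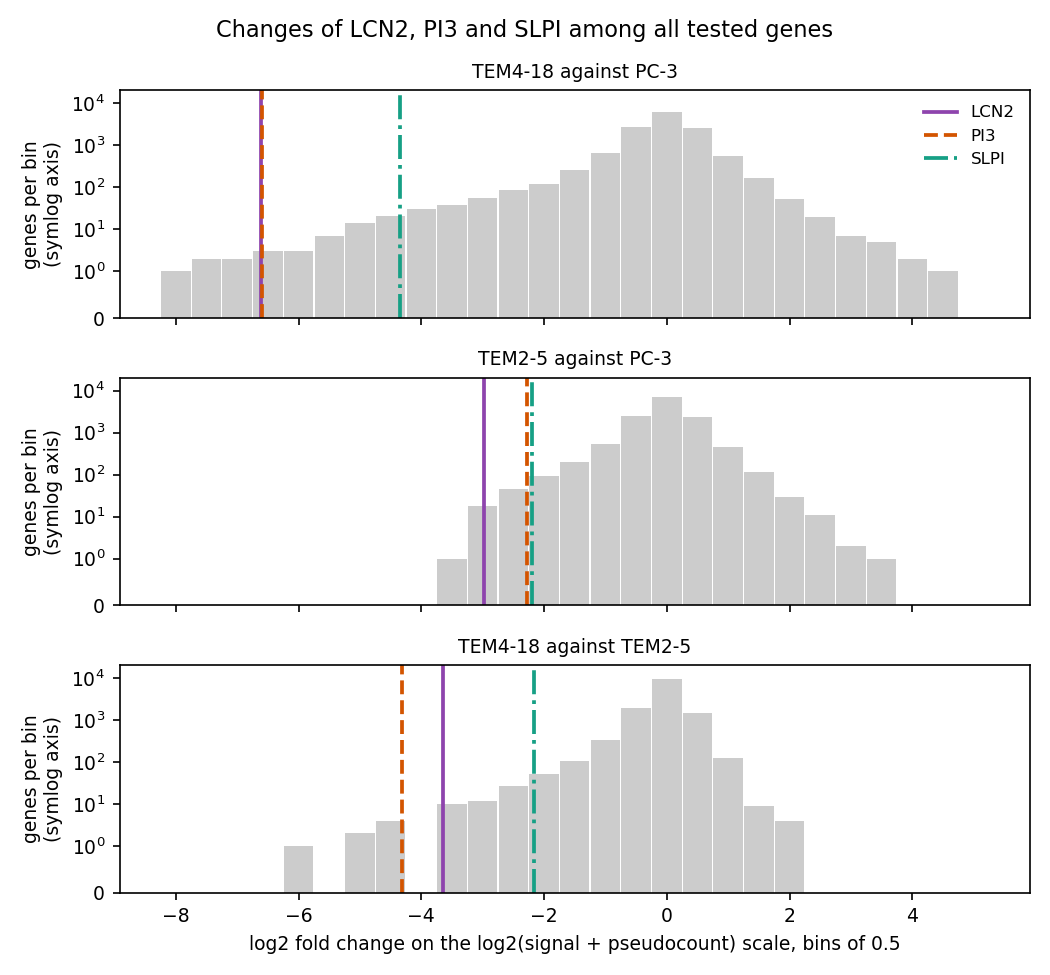
Number of tested genes per bin of log2 fold change (symlog vertical axis) for the 3 comparisons, with vertical lines at LCN2, PI3 and SLPI. LCN2 at -6.62 and PI3 at -6.59 lie far out on the lower side for TEM4-18, and all 3 lines lie below -2 in each panel.

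The difference between the isolated lines was tested directly. All 3 measurable genes were lower in TEM4-18 than in TEM2-5. PI3 differed most, with 23.3-fold more signal in TEM2-5 and a log2 difference, TEM4-18 minus TEM2-5, of -4.32 ± 0.10 (SE, limma adjusted p = 7.99e-09). LCN2 was 15.7-fold higher in TEM2-5, with a log2 difference of -3.64 ± 0.15 (limma adjusted p = 3.61e-07). SLPI was 4.71-fold higher in TEM2-5, with a log2 difference of -2.16 ± 0.23 (limma adjusted p = 0.000712). Of the 7 members, 3 were thus called lower in TEM4-18 here, where 2.27% of tested genes were called lower and 0.494% higher, and 1.58% of tested genes were called lower in both TEM lines than in PC-3 and lower in TEM4-18 than in TEM2-5. The SLPI call was lost without the mean-variance trend (-2.16, limma adjusted p = 0.0962). The number of probe sets called in this comparison, 584, fell to 220 when TEM2-5 replicate 1 was left out, to 269 when TEM2-5 replicate 2 was, and to 319 when TEM4-18 replicate 2 was.

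By point values, the members differed in how the fall was divided between the lines. On the log2 scale, the change in TEM2-5 was 50.3% of that in TEM4-18 for SLPI, 45.0% for LCN2 and 34.5% for PI3. The other probe set of PI3 gave 31.1%. PI3 and SLPI kept close to the same share of the PC-3 signal in TEM2-5, at 20.6% and 21.5%, and differed in TEM4-18, at 0.883% and 4.56%. LCN2 was lowest of the 3 in TEM2-5 by this share. These shares move with the settings, since the TEM4-18 change of LCN2 was -6.97 with a pseudocount of 1 and -5.89 with 4 times the main one. That of SLPI was -4.78 or -3.91 without TEM4-18 replicate 1 or 2. Whether genes differed from each other was not tested.

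Across the 6 arrays, with each log2 profile centred on its own mean, LCN2 and PI3 differed by a root mean square of 0.35 log2 units, LCN2 and SLPI by 1.01, and PI3 and SLPI by 1.08. By the same measure the 3 genes most like each member were sought among 13554 others. They were EPPK1 (0.24), a keratin-binding plakin, CDH3 (0.26), the P-cadherin gene, and ST14 (0.39), the membrane protease matriptase, for LCN2. For PI3 they were EHF (0.26), an epithelial ETS transcription factor, CDH1 (0.34) and the mitochondrial co-chaperone gene DNAJC15 (0.35). Both TEM4-18 readings of EHF and the TEM4-18 mean of CDH1 lay below the pseudocount, so their likeness to PI3 depends on it. With probe sets averaged, the TEM4-18 log2 fold change was -3.83 for EHF and -6.97 for PI3. For SLPI they were C1orf210 (0.078), the epithelial vesicle-trafficking GTPase RAB25 (0.14) and the epithelial transcription factor GRHL2 (0.17). All 9 were called lower in both TEM lines, with log2 fold changes from -7.33 to -4.22 in TEM4-18 and from -3.32 to -1.64 in TEM2-5, and they were chosen for this likeness.

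PI3 and SLPI lie near each other in the WFDC gene cluster, named for the whey acidic protein fold that both inhibitors carry. Measured genes around them, looked at after values were seen and given as a description, were in RefSeq's chromosomal order KCNS1, WFDC5, WFDC12, PI3, SEMG1, SEMG2, SLPI, MATN4, RBPJL and SDC4. The seminal plasma genes SEMG1 and SEMG2, which stand between the members, were dim throughout, at 6.01 to 16.6 and 64.0 to 155. WFDC5 read 25.4 to 120 and WFDC12 read 34.2 to 214. These 4 genes and RBPJL lay below the filter. KCNS1, a potassium channel subunit gene, and MATN4, a matrix protein gene, were tested and not called, with adjusted p-values from limma of 0.131 and 0.790 in TEM4-18 and 0.666 and 0.372 in TEM2-5. SDC4, the gene of the cell surface proteoglycan syndecan 4, fell modestly, with log2 fold changes of -0.66 (limma adjusted p = 0.000987) in TEM4-18 and -0.36 (limma adjusted p = 0.0384) in TEM2-5. Genes below the filter in every line could not show a fall of the members' size.

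**Figure D3:**
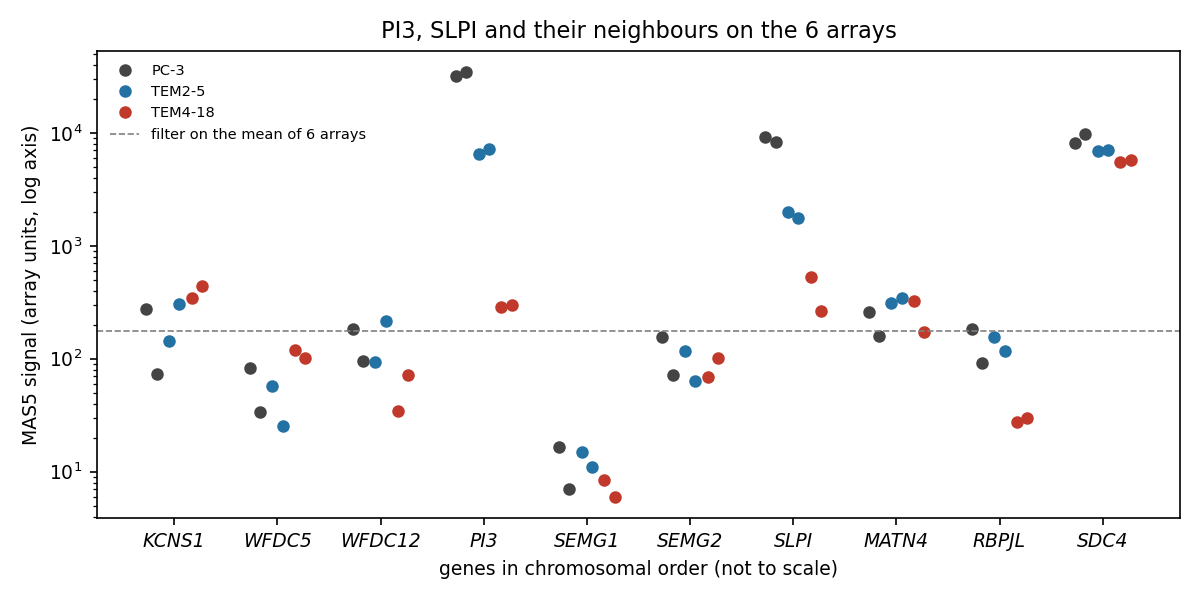
Signal of PI3, SLPI and their measured neighbours on the 6 arrays (log axis, array units), in chromosomal order and not to scale, with a point per array. PI3 and SLPI are the genes that separate the 3 lines by wide steps, SEMG1 and SEMG2 between them stay at or below 155, and SDC4 falls slightly from 9876 at most to 5564 at least.

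Other genes of the same biology were taken from 6 lists written from textbook knowledge, some genes being in more than 1 list. Among genes of protease inhibitor families and neutrophil proteases, 23 of 25 genes were measured and 13 tested. In TEM4-18, 7 were lower (53.8%) and 2 higher (15.4%), and the same counts held in TEM2-5, beside the backgrounds of all tested genes given above. The list's median log2 fold change was -0.84 in TEM4-18 and -0.33 in TEM2-5. CST6, a cysteine protease inhibitor of skin, had mean signals of 4058 in PC-3, 669.6 in TEM2-5 and 241 in TEM4-18, with log2 fold changes of -2.50 ± 0.20 and -3.79 ± 0.20 in the TEM lines. SPINT1, an inhibitor of matriptase and hepsin, had log2 fold changes of -2.04 in TEM2-5 and -3.14 in TEM4-18. For SERPINA1, the antitrypsin gene, these were -1.96 and -2.55. SERPINB5, the maspin gene, changed little more than a log2 unit in TEM2-5 (-1.24) and far more in TEM4-18 (-3.83). CST3, the cystatin C gene, and TIMP1, a metalloproteinase inhibitor, were the 2 that rose, and both were named after their values were seen. The neutrophil protease genes ELANE, PRTN3 and CTSG lay below the filter.

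Among antimicrobial and mucosal proteins, 28 of 30 genes were measured and 14 tested. In TEM4-18, 6 were lower (42.9%) and 0 higher, beside 16.1% and 13.3% of all tested genes, with 1 higher at an unadjusted p under 0.05 from limma. In TEM2-5, 6 were lower (42.9%) and 1 higher (7.14%), beside 10.1% and 9.04%. S100A9, a calprotectin subunit, read 4559 and 4586 in PC-3, 1256 and 1568 in TEM2-5, and 178 and 8.61 in TEM4-18. The TEM4-18 arrays lay far apart, and the lower was under the pseudocount. Its log2 fold change was -5.30 ± 0.46 in TEM4-18 (limma adjusted p = 1.65e-05), where it was -6.26 or -4.33 without TEM4-18 replicate 1 or 2 and -6.79 or -4.05 with a pseudocount of 1 or 4 times the main one, all called. In TEM2-5 it was -1.67 ± 0.46 (limma adjusted p = 0.0314), and this call was lost with each of the 4 arrays of that comparison left out in turn (adjusted p from limma of 0.0995 and 0.111 without PC-3 replicate 1 and 2, 0.151 and 0.0915 without TEM2-5 replicate 1 and 2). The trefoil peptide gene TFF1 had log2 fold changes of -1.53 in TEM2-5 and -3.31 in TEM4-18. AGR2, a disulfide isomerase needed for mucin folding, had -1.13 and -3.37. DMBT1, a mucosal scavenger receptor gene, had -1.32 and -1.09. The TEM2-5 calls were lost for AGR2 without PC-3 replicate 1 (limma adjusted p = 0.105) or TEM2-5 replicate 2 (limma adjusted p = 0.129). For DMBT1 they were lost without PC-3 replicate 2 (limma adjusted p = 0.0734) or TEM2-5 replicate 2 (limma adjusted p = 0.0718), and in TEM4-18 without PC-3 replicate 2 (limma adjusted p = 0.102) or TEM4-18 replicate 1 (limma adjusted p = 0.101).

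In the complement list, 30 of 34 genes were measured and 13 tested. In TEM4-18, 2 were lower (15.4%) and 3 higher (23.1%), beside 16.1% and 13.3% of all tested genes. In TEM2-5, 1 was lower (7.69%) and 4 were higher (30.8%), beside 10.1% and 9.04%. The list medians were -0.12 and 0.19. C1R, the protease that starts the classical cascade, had mean signals of 442 in PC-3, 953 in TEM2-5 and 1529 in TEM4-18, with log2 fold changes of 0.97 ± 0.24 and 1.68 ± 0.24. The TEM2-5 call of C1R was lost without TEM2-5 replicate 2 (0.58, limma adjusted p = 0.170), PC-3 replicate 1 (limma adjusted p = 0.0820) or PC-3 replicate 2 (limma adjusted p = 0.0511). CFD, the protease that cleaves factor B, had log2 fold changes of -0.67 in TEM2-5 and -0.78 in TEM4-18. Its TEM2-5 call was lost without PC-3 replicate 1 (limma adjusted p = 0.0694) or TEM2-5 replicate 2 (limma adjusted p = 0.0688). CD59, the membrane inhibitor of the attack complex, rose by 0.34 and 0.33.

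Of the acute phase list, 14 of 16 genes were measured and 4 tested, and limma called 0 in either line. Of all tested genes, 16.1% were lower and 13.3% higher in TEM4-18, and 10.1% and 9.04% in TEM2-5. At an unadjusted p under 0.05 there were 0 in TEM4-18 and 1 in TEM2-5. PTX3, a pattern recognition protein, had mean signals of 9334 in PC-3, 10819 in TEM2-5 and 9461 in TEM4-18, and its log2 fold change was 0.21 in TEM2-5 (limma adjusted p = 0.157) and 0.02 in TEM4-18 (limma adjusted p = 0.906).

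Of 36 inducers and transcription factors of these genes, 34 were measured and 29 tested. In TEM4-18, 9 were lower (31.0%) and 5 higher (17.2%), beside 16.1% and 13.3% of all tested genes. In TEM2-5, 7 were lower (24.1%) and 3 higher (10.3%), beside 10.1% and 9.04%. EHF read 8269 and 7561 in PC-3, 1817 and 1426 in TEM2-5, and 33.4 and 6.38 in TEM4-18. Its log2 fold change was -2.26 ± 0.21 in TEM2-5 (limma adjusted p = 7.96e-05) and -6.82 ± 0.21 in TEM4-18 (limma adjusted p = 1.25e-08). Both TEM4-18 readings lay below the pseudocount, so the size of the latter is set by it, at -8.96 with a pseudocount of 1 and -5.16 with 4 times the main one. It was -3.83 with the probe sets of EHF averaged, and the call held in each. ELF3, another epithelial ETS factor, had log2 fold changes of -1.49 in TEM2-5 and -2.42 in TEM4-18. IL6, a cytokine that induces acute phase genes, had -1.65 and -2.39. LIFR, a receptor of the same cytokine family, rose by 1.07 and 0.96. The LIFR calls were lost in both lines without PC-3 replicate 2 (limma adjusted p = 0.0741 in TEM2-5 and 0.0852 in TEM4-18), in TEM2-5 without its replicate 1 (limma adjusted p = 0.0945) and in TEM4-18 without its replicate 2 (limma adjusted p = 0.0849). The NF-kappaB genes NFKB1 and RELA were not called, with log2 fold changes of -0.17 and 0.045 in TEM4-18 and -0.18 and -0.15 in TEM2-5. The cofactor gene NFKBIZ was not called either, at 0.32 (limma adjusted p = 0.0622) and 0.29 (limma adjusted p = 0.107). NFKBIA, the gene of the NF-kappaB inhibitor and itself a target of NF-kappaB, was called higher in TEM4-18, at 0.49 (limma adjusted p = 0.0142), and not in TEM2-5, at 0.083 (limma adjusted p = 0.711). CEBPB, a C/EBP transcription factor gene, was called lower in both lines, at -0.74 (limma adjusted p = 0.000115) in TEM4-18 and -0.60 (limma adjusted p = 0.000982) in TEM2-5. The cytokine gene IL1B was also called lower in both, at -1.80 (limma adjusted p = 1.98e-05) and -0.52 (limma adjusted p = 0.0481). These 6 genes were named after their values were seen, and their calls were not followed through the alternative fits. The TEM2-5 call of IL1B lay close to the threshold of 0.05.

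Among receptors and partners of the members, all 20 were measured and 13 tested. In TEM4-18, 7 were lower (53.8%) and 0 higher, beside 16.1% and 13.3% of all tested genes. In TEM2-5, 4 were lower (30.8%) and 0 higher, beside 10.1% and 9.04%. At an unadjusted p under 0.05 from limma 0 were higher in either line. TGM2, a transglutaminase, had mean signals of 14877 in PC-3, 5089 in TEM2-5 and 2101 in TEM4-18, with log2 fold changes of -1.54 ± 0.13 and -2.80 ± 0.13. ITGB2, a subunit of complement receptor 3, had log2 fold changes of -1.05 in TEM2-5 and -0.99 in TEM4-18. The pattern recognition receptor gene TLR2 had -0.87 and -1.03, and PLSCR1, whose product is a membrane protein that binds SLPI, had -0.50 and -0.84. The calls were lost for ITGB2 in TEM2-5 without TEM2-5 replicate 2 (limma adjusted p = 0.0508). For TLR2 they were lost in TEM2-5 without PC-3 replicate 1 or 2 or TEM2-5 replicate 1 (adjusted p from limma of 0.0761, 0.146 and 0.209). In TEM4-18 the TLR2 call was lost without PC-3 replicate 2 or TEM4-18 replicate 2 (adjusted p from limma of 0.0578 and 0.0669). SLC22A17, a lipocalin 2 receptor gene, was not called, with log2 fold changes of 0.14 in TEM2-5 and 0.27 in TEM4-18.

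Some calls of these genes also rested on the settings of the fit. Without the mean-variance trend, the TEM2-5 calls of C1R, CD59, S100A9, AGR2, LIFR, TLR2 and PLSCR1 were lost, with adjusted p-values from limma of 0.0875 to 0.178, as were the TEM4-18 calls of CD59 (0.0905) and LIFR (0.0992). With no filter, the TEM2-5 calls of C1R, S100A9, AGR2 and TLR2 were lost (0.0534 to 0.0910), as was the TEM4-18 call of DMBT1 (0.0534). S100A9 also lost its TEM2-5 call with a pseudocount of 1 (0.284) and in the fit with each gene's probe sets averaged (0.0639). S100A9 has 1 tested probe set, and its value in the averaged fit was unchanged at -1.67. LIFR lost its TEM4-18 call in the averaged fit (0.0590). Probe sets of a gene did not always share the call. In both lines 2 of 5 did for LIFR, 1 of 3 for ITGB2 and 2 of 3 for SERPINA1. In TEM2-5, 1 of 2 did for each of SPINT1, SERPINB5 and AGR2, 1 of 3 for ELF3, 3 of 5 for CD59 and 5 of 6 for EHF. In TEM4-18, 2 of 3 did for ELF3 and 4 of 5 for CD59. None was called the opposite way. With probe sets averaged, the TEM4-18 values were -2.32 for SPINT1, -1.53 for SERPINA1, -3.19 for SERPINB5 and -2.59 for AGR2, and the TEM2-5 values were -1.41 for SPINT1 and -1.23 for SERPINA1, all of them still called.

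**Figure D4:**
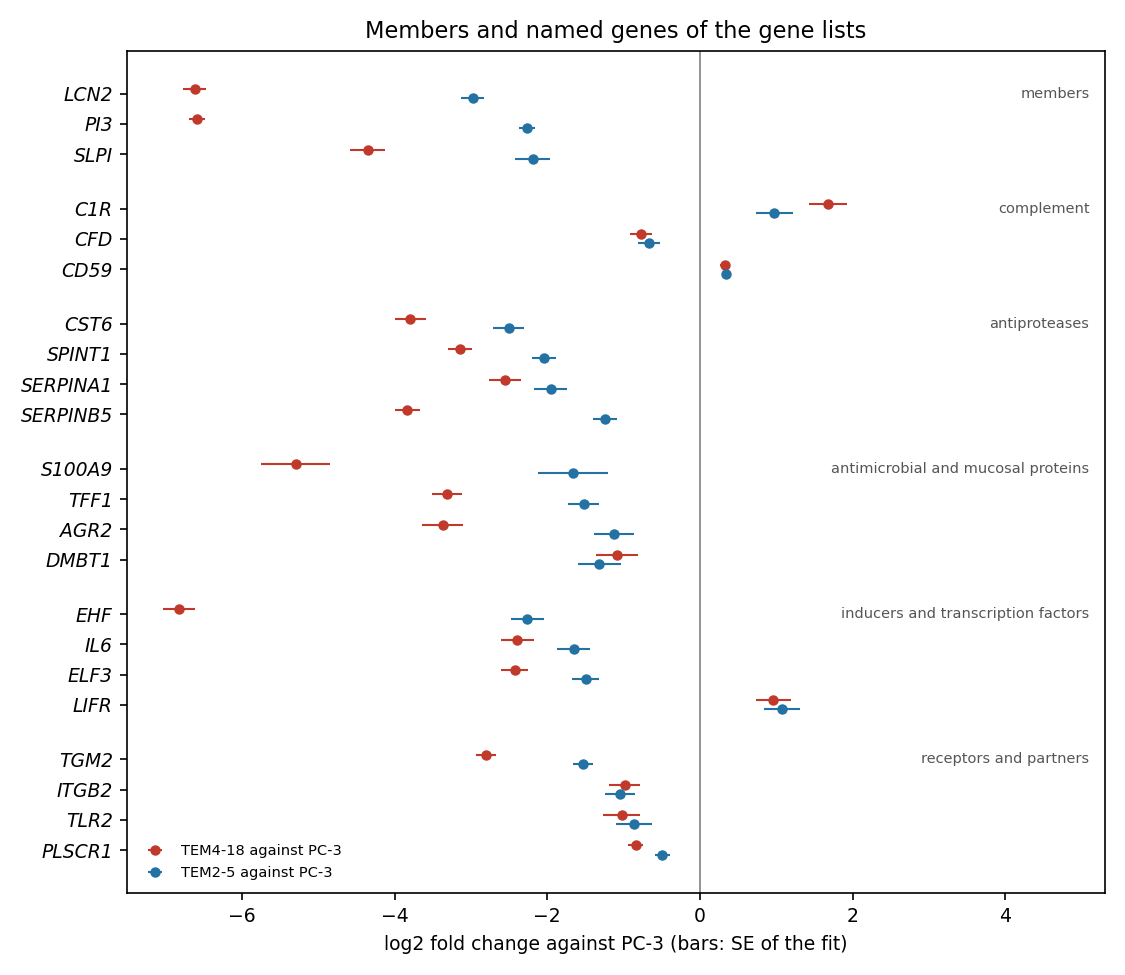
Log2 fold changes against PC-3 of the 3 tested members and of the genes named from the lists (points, with the SE of the fit as bars), TEM4-18 in red and TEM2-5 in blue. LCN2 and PI3 in TEM4-18, at -6.62 and -6.59, lie beside EHF at -6.82, a value that depends on the pseudocount, and C1R, CD59 and LIFR lie to the right of 0.

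Markers of other cell types were read beside these changes, since neutrophils also make LCN2 and SLPI. Over 11 leukocyte and neutrophil markers the summed signal was 2594 to 3220 on the PC-3 arrays, 1959 to 2191 in TEM2-5 and 2429 to 2437 in TEM4-18. Of 5 tested, ITGB2 was lower in both lines and 0 were higher, with 1 higher at an unadjusted p under 0.05 in each. The neutrophil genes CEACAM8 and ELANE had means at or below 10.8 and 47.3 in every line, under the pseudocount of 51.8. MPO, CSF3R and ITGAM passed the filter and were not called in either line. Their means in PC-3, TEM2-5 and TEM4-18 were 291, 182 and 319 for MPO and 353, 339 and 312 for CSF3R. For ITGAM they were 283, 215 and 288. Over 12 endothelial markers the sum was 2664 to 2862 in PC-3, 4281 to 4481 in TEM2-5 and 4050 to 5290 in TEM4-18. Of 4 tested, 3 were higher in TEM4-18 (75%) and 2 in TEM2-5 (50%), beside 13.3% and 9.04% of all tested genes. KDR had mean signals of 226 in PC-3, 1251 in TEM2-5 and 1423 in TEM4-18, with log2 fold changes of 2.29 and 2.40. ROBO4 rose by 0.78 in TEM2-5 and 0.73 in TEM4-18. ESAM was called in TEM4-18 (1.40) and not in TEM2-5 (0.71, limma adjusted p = 0.0524), and PECAM1 was called in neither. The other 8, with CDH5, VWF, TEK and TIE1 among them, lay below the filter. Over 9 fibroblast markers the sum was 8464 to 10272 in PC-3, 19518 to 23764 in TEM2-5 and 19794 to 23211 in TEM4-18, with the collagen gene COL1A1 higher in both lines and LUM, which encodes a matrix proteoglycan, lower in TEM4-18. COL1A1 alone carried the rise in this sum, since the other 8 markers summed to 1595 to 1972 in PC-3, 1467 to 1844 in TEM2-5 and 822 to 932 in TEM4-18. Over 3 measured prostate luminal markers the sum was 1379 to 2253 in PC-3, 3248 to 3361 in TEM2-5 and 3461 to 3917 in TEM4-18. Of 2 tested, 1 was higher in each line (50%), beside 13.3% of all tested genes in TEM4-18 and 9.04% in TEM2-5. This was TMPRSS2, at 1.71 in TEM4-18 (limma adjusted p = 0.000212) and 1.51 in TEM2-5 (limma adjusted p = 0.000948). KLK3 was not called and KLK2 lay below the filter. The part of these markers in the members' changes was not tested.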

How the data were processed

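The values deposited by the authors are signal intensities on a linear scale, made with MAS5 (version not given) per the submitters' processing notes. On every array their 2% trimmed mean lay between 1500.17 and 1500.18, so they were taken as already scaled. Detection calls were not used here, and the genome build is not given in the sources used here. Probe sets were named from the platform annotation (41097 with 1 symbol, 1801 with several, 11777 with none), with symbols matched by gene ID to RefSeq for GRCh38.p14, which left 54 unmatched and changed 0. Promoter sequences are from RefSeq, build GRCh38.p14, with entries for 2 of the 7 members.

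Intensities were transformed to log2(value + 51.8), 51.8 being the 20th percentile of all values. Of all but the 62 control probe sets, those with a mean above 178, the 40th percentile, were tested (32518 probe sets and 13557 genes). Each gene was read from its brightest single-symbol probe set. limma 3.58.1 in R 4.3.3 (lmFit, eBayes with a mean-variance trend) was fitted once for the 3 lines (3 residual degrees of freedom). Its two-sided p-values were adjusted by Benjamini-Hochberg within each comparison, over the whole set of tested probe sets, with calls at 0.05, and the fit was checked on simulated data. The precision is limited by the number of arrays.

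The members, lists and tests were chosen with earlier results of these data known. Genes named from a list were up to 4 with the largest smaller change among those called in both lines in the same direction. Others were named after their values were seen. Alternatives were other pseudocounts, filters, normalization and probe set rules, a fit without the trend, a replicate block and leaving out each array. Single genes were followed through them only if they were members or 1 of the 19 genes named from the lists by this rule. The calls of all other genes named were not checked in this way. Same-numbered arrays deviated together at correlations of 0.065 to 0.097. In each line replicate 1 had the higher median signal, at 317, 296 and 310 against 282, 267 and 281 (PC-3, TEM4-18, TEM2-5). The labels give the numbers no shared batch, so arrays were not paired in the main fit. With the replicate number as a block, more probe sets were called in each comparison, as given below. For 1 TEM2-5 array the labels disagree on the replicate number, and the number in the title was used.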

Additional observations from a re-analysis of the deposited data

Results flagged for a closer look

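The change against PC-3 differed between the 2 TEM lines for all 3 tested members, by limma's test of TEM4-18 against TEM2-5. On the log2 scale the difference, TEM4-18 minus TEM2-5, was -4.32 for PI3, -3.64 for LCN2 and -2.16 for SLPI. Of the 19 genes named from the lists, 9 also differed between the lines by that test, all lower in TEM4-18. These were EHF (-4.56), S100A9 (-3.63), SERPINB5 (-2.59), AGR2 (-2.24), TFF1 (-1.78), CST6 (-1.29), TGM2 (-1.26), SPINT1 (-1.10) and ELF3 (-0.93). Without the mean-variance trend, EHF and SERPINB5 kept this call, and the other 7 lost it, with adjusted p-values from limma of 0.0907 for TGM2, 0.0982 for TFF1, 0.132 for CST6, 0.145 for AGR2, 0.147 for ELF3, 0.151 for SPINT1 and 0.155 for S100A9. With probe sets averaged, it was lost for CST6 (0.245), SPINT1 (0.0745), ELF3 (0.179) and TGM2 (-0.61, 0.199), and EHF had -1.89 and AGR2 -1.61. The differences of EHF and S100A9 moved with the pseudocount, to -6.66 and -5.08 with a pseudocount of 1 and to -3.004 and -2.48 with 4 times the main one, and that of LCN2 was -2.98 with the latter. The S100A9 difference was -4.59 without TEM4-18 replicate 1 and -2.67 without TEM4-18 replicate 2. The ELF3 difference was also lost with no filter (0.0869). It passed least clearly (limma adjusted p = 0.0276) of the 9, and it was lost without TEM4-18 replicate 1 or 2 (adjusted p from limma of 0.101 and 0.0835) and without TEM2-5 replicate 1 (limma adjusted p = 0.235). The CST6 difference was lost without TEM2-5 replicate 1 (limma adjusted p = 0.104) and the SPINT1 difference without TEM2-5 replicate 2 (limma adjusted p = 0.0672).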

How the results depend on the processing

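Of 126 alternative values for the members, 125 kept the direction and the side of the threshold. The exception was SLPI in TEM4-18 against TEM2-5 without the mean-variance trend (-2.16, limma adjusted p = 0.0962). In the other fits 3 members were called in each comparison, and in that one 2. Probe sets called without the trend numbered 5404 between TEM4-18 and PC-3, 2353 between TEM2-5 and PC-3 and 127 between the TEM lines. With no filter, 300 were called between the TEM lines. With 1 array left out, these 3 counts ran from 5974 to 7761, from 2842 to 5136 and from 220 to 553. With the replicate number as a block, 9441, 6433 and 871 were called, and no member changed its call. Of 795 alternative values for the named list genes, 59 lost the call and the others kept it or stayed without one. The cause was not tested. Low MAS5 signals are noisy, so C3, CFB and the TEM4-18 readings of the other members limit how far a fall can be followed.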

Other observations

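Genes beside the other members were read in the same way, 3 measured genes on each side. Near C3, SH2D3A, which encodes an SH2 domain adaptor, read 2265 and 2868 in PC-3, 745 and 638 in TEM2-5 and 169 and 316 in TEM4-18, with log2 fold changes of -1.81 ± 0.25 (SE, limma adjusted p = 0.000817) and -3.19 ± 0.25 (limma adjusted p = 8.17e-06). Its lines did not overlap. The other tested neighbours of C3, TNFSF9, CD70 and TRIP10, were not called in either line, and TNFSF14 and VAV1 lay below the filter. Near LCN2, BBLN had log2 fold changes of -0.47 in TEM2-5 (limma adjusted p = 0.0213) and -0.72 in TEM4-18 (limma adjusted p = 0.00121), and the other 5 neighbours, SLC25A25, SLC25A25-AS1, PTGES2, CIZ1 and DNM1, were not called in either line. Near CFB, its neighbour C2, another complement protease gene, read 28.2 to 318 over the 6 arrays and lay below the filter, as did ZBTB12, and EHMT2, SKIC2, DXO and WHR1 were not called. These genes were looked at after the data were seen.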
